A study of Mus musculus with 6 samples.

Results

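The genes described here encode the nuclear subunits of the mitochondrial respiratory chain, with the alternative forms and helper proteins that share their names. Members were chosen by gene name alone, as genes whose array name begins with Nduf followed by a, b, c, s or v, with Uqcr, with Cox and a digit from 4 to 8 or with Atp5, or is Sdha, Sdhb, Sdhc or Sdhd. This gave 90 genes with 134 probes, of 35077 named genes with 55672 probes on the array. By complex they comprised 42 genes of complex I, 4 of complex II, 8 of complex III, 19 of complex IV and 17 of complex V. By role, 74 were subunits, 8 were alternative forms of a subunit, 4 were complex I assembly factors and 4 were other genes caught by their names.

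The samples were 3 of intermediate interzone and 3 of outer interzone, taken from mouse embryos 15.5 days into gestation, and the design text equates a biological replicate with 1 embryo. The interzone is the band of cells at which a limb joint forms between cartilage templates, and its outer layers lie next to the cartilage. The labels name no strain, genotype or treatment for either group, nor the way in which the layers were parted. Cy3-labelled cRNA was hybridised to 1-colour Agilent arrays, and each level below is the log2 processed signal minus the 75th percentile of its array.

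The respiratory chain sits in the inner mitochondrial membrane, where complexes I and II pass electrons from NADH and succinate to coenzyme Q, complex III passes them on to cytochrome c and complex IV passes them to oxygen. Complexes I, III and IV pump protons, and complex V, the ATP synthase, lets the protons back in and makes ATP. Most subunits are encoded in the nucleus and a few core subunits in the mitochondrial genome, and cartilage is a tissue known for its reliance on glycolysis.

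Array brightness varied between samples. The processed signal had a 75th percentile of 144, 265 and 344 for intermediate replicates 1, 2 and 3, and 47.4, 290 and 150 for outer replicates 1, 2 and 3. Outer replicate 1, the dimmest array, had 35.6% of spots above background by the scanner's flag, and the other arrays had 45.1% to 53.4%. All intermediate arrays shared slide 1 with outer replicate 1, while outer replicates 2 and 3 were on slide 2. Col2a1, the main collagen of cartilage, had levels of 5.72, 6.33 and 4.98 in intermediate and 9.28, 8.69 and 8.65 in outer interzone (limma adjusted p = 0.011), and 12 of 14 cartilage genes were called higher in the outer samples. Gdf5, a defining gene of the interzone, had levels of 5.25, 6.72 and 5.12 in intermediate and 4.69, 6.81 and 5.57 in outer interzone. Other genes of the interzone and joint list went both ways, with 2 of 11 called higher and 1 called lower, and their differences ran from -1.77 to 3.41. Of the markers of other cells, 12 of 14 leukocyte, 7 of 10 endothelial and 2 of 3 nerve genes were called lower in the outer samples, against 2.48% of all genes. Of 6 erythroid, 19 skeletal muscle and 6 skin epidermis genes, 0 were called lower, and 1 erythroid gene was called higher. In such bulk samples, fewer cells of a type and less RNA per cell cannot be told apart.

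Of the 90 genes, 88 were tested, that is, had a probe flagged as well above background on every array of 1 group or both, and 85 were above background on all 6 arrays. Cox7b2 and Cox8c, both known as testis forms of complex IV subunits, were not well above background on any array. The layers were compared by limma over all 18003 genes tested, at an adjusted p threshold of 0.05. A gene past that threshold is referred to as called, and every difference is outer minus intermediate.

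The factors NRF1, GABPA and YY1 are known to act on nuclear genes of respiration. To show whether letters of such factors lie near the start, promoters of several subunits and of the alternative form Cox6b2 are printed here. RefSeq promoters of build GRCm38.p6, from 250 bases before to 50 bases after the start, were matched for 74 of the 90 genes and 63 of the 74 subunits. The letters GCATGCGC of NRF1, searched on both strands as were the others, were in 15.9% of the 63 subunit promoters and 3.05% of the promoters of all 27025 genes. Those genes were taken whether or not they were tested on the arrays. The letters CCGGAAG of the ETS family, to which GABPA belongs, were in 25.4% of subunit promoters and 9.93% of all. The letters AAGATGGC of YY1 were in 15.9% and 3.19%. The core ACGTG of the hypoxia response element was in 23.8% and 21.8%. Of the 63 subunits, 30 held at least 1 of the NRF1, ETS and YY1 motifs. A match is a description of the letters and not a site shown to be bound, and its bearing on the levels was not tested. Each line below gives the 120 bases before the start on the gene's strand, with the NRF1 or ETS letters of either strand in capitals.
Ndufa11, chr17:56717642-56717761 (+): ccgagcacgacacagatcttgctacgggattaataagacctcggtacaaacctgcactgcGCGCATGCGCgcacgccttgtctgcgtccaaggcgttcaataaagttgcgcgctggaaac
Sdhb, chr4:140961151-140961270 (+): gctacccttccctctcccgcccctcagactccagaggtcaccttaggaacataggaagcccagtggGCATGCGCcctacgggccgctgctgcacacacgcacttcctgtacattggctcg
Sdhd, chr9:50603850-50603969 (-): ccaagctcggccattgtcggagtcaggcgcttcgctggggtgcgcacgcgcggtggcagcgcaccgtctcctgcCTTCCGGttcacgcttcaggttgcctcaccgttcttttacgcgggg
Uqcrh, chr4:116075071-116075190 (-): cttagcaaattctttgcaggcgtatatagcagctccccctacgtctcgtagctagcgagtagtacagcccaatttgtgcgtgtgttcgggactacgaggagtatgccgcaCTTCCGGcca
Cox6b1, chr7:30626115-30626234 (-): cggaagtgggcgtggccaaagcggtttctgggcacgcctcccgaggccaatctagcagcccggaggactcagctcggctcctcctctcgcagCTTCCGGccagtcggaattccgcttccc
Cox6b2, chr7:4753095-4753214 (-): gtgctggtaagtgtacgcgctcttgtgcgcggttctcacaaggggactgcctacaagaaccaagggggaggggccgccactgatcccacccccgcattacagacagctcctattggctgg
Atp5g2, chr15:102671048-102671167 (-): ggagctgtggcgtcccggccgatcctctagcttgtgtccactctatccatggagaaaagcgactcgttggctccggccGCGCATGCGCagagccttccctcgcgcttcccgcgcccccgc
In Ndufa11 and Atp5g2 the NRF1 letters overlap on the 2 strands and form a palindrome. Cox6b2, the alternative form of Cox6b1, has none of these motifs in this window, whereas Cox6b1 has the ETS letters close to the start.

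The 2 layers did not differ detectably in the RNA of the common subunits. None of the 74 subunits was called, and none had an unadjusted p under 0.05 in this fit, which does not pair the samples. For comparison, 4.05% of all genes tested were called, 1.57% as higher and 2.48% as lower in the outer interzone. In none of the 74 were the 3 outer levels all above or all below the 3 intermediate levels, which was the case for 27.1% of all genes tested. That count takes no account of the replicate number, by which the subunits varied together in both layers, as given below. Ndufa10, for example, overlapped although its outer sample was the lower one within each replicate number. The subunits' differences ran from -0.33 for Cox6b1 to 0.19 for Cox7c, and their median was -0.01, beside a median of 0.10 over all genes. Of the 74, 33 had a positive and 41 a negative difference, and 72 lay within 0.25 of 0.

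In the fit without a block, these small differences were measured about as precisely as those of other genes. The median standard error was 0.226 for the 74 subunits and 0.228 for all genes. The 95% interval of the difference lay within 2-fold in either direction for 73 of the 74 subunits (98.6%), against 60.4% of all genes. It lay within 1.5-fold for 24 of the 74 subunits and 3320 of all 18003 genes. These counts depend on the size of a difference as well as on its precision. When the replicate number was taken as a block, the median standard error was 0.124 for the subunits and 0.149 for all genes. The interval then lay within 1.5-fold for 69 of the 74 subunits and 6335 of all 18003 genes. A smaller difference than these intervals allow was not detectable with 3 arrays per group.

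**Figure D1:**
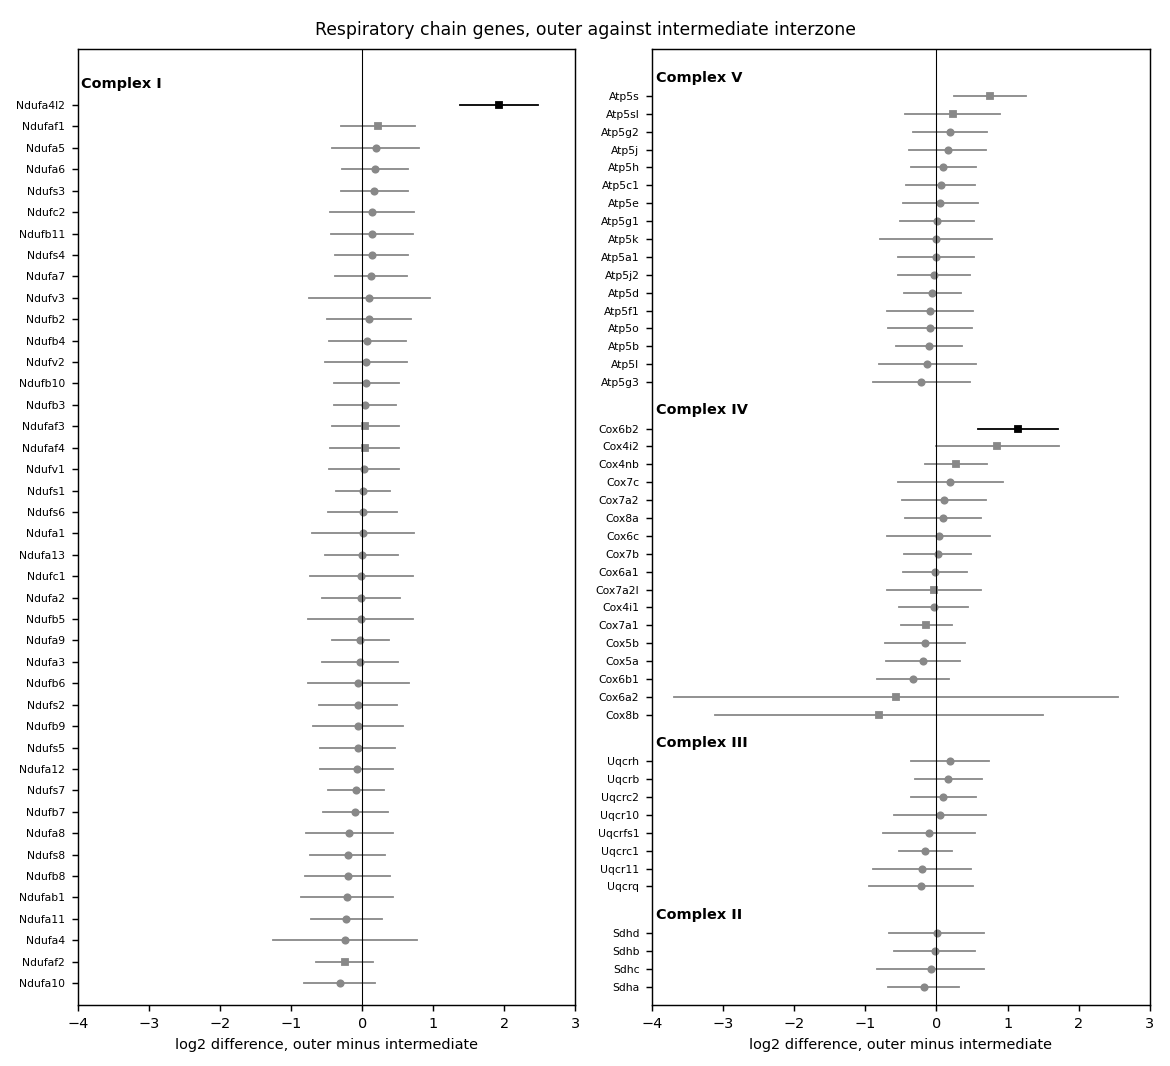
Log2 difference, outer minus intermediate interzone, for each of the 88 respiratory chain genes tested, by complex, with its 95% interval from limma (3 arrays per group). Circles are subunits and squares are alternative forms, assembly factors and other genes, and black marks the called genes Ndufa4l2 and Cox6b2. The subunits lie between -0.33 and 0.19.

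**Figure D2:**
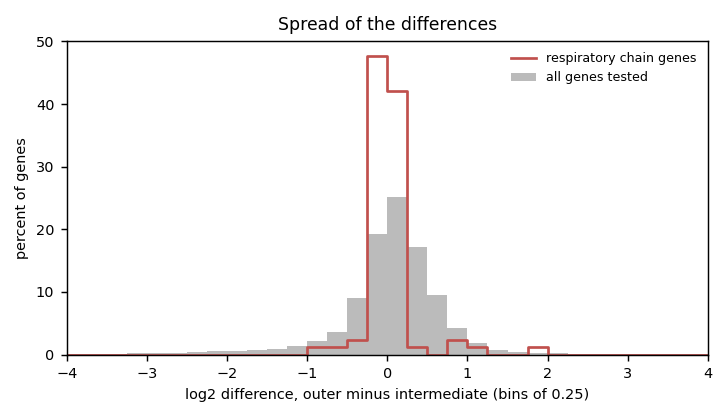
Percent of genes in bins of 0.25 of the log2 difference, outer minus intermediate, for all 18003 genes tested (grey bars) and the 88 respiratory chain genes (red line), shown from -4 to 4. Of the 88, 79 lie within 0.25 of 0.

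In complex I, the proton-pumping NADH dehydrogenase, the 37 subunits, counted by name with Ndufa4 among them, had a median difference of -0.01. Ndufv1, which carries the NADH-binding site, had levels of 5.13, 5.56 and 5.33 in intermediate and 5.10, 5.62 and 5.37 in outer interzone, a difference of 0.02. Ndufs1, the largest iron-sulfur subunit, had 4.05, 4.17 and 4.06 in intermediate and 4.26, 4.03 and 4.03 in outer interzone. For both genes the groups overlapped, and the highest Ndufs1 level was that of outer replicate 1. Ndufa10, an accessory subunit, had the lowest difference of the complex, with levels of 2.03, 2.32 and 1.86 in intermediate and 1.65, 2.04 and 1.56 in outer interzone (difference -0.32, SE 0.21, limma adjusted p = 0.44). Ndufa5, another accessory subunit, had the highest among the subunits, with levels of 5.52, 6.28 and 5.78 against 5.71, 6.27 and 6.17 (difference 0.19). In each of these the groups overlapped. The brightest probes of the complex were those of Ndufa13, at 6.69, 7.22 and 6.91 in intermediate and 6.64, 7.12 and 7.04 in outer interzone, and of Ndufa2, at 5.92, 6.42 and 6.14 against 5.76, 6.33 and 6.34. The assembly factors Ndufaf1 to Ndufaf4, which help build complex I and are not part of it, had differences of 0.22, -0.25, 0.04 and 0.04, and none was called.

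Complex II is succinate dehydrogenase, which is also an enzyme of the citric acid cycle and is encoded entirely in the nucleus. Sdha, the flavoprotein with the catalytic site, had levels of 3.79, 4.10 and 4.07 in intermediate and 3.55, 4.14 and 3.73 in outer interzone, a difference of -0.18 (SE 0.21, limma adjusted p = 0.66). Sdhb, the iron-sulfur subunit, had 5.49, 6.03 and 5.75 in intermediate and 5.35, 6.01 and 5.83 in outer interzone, a difference of -0.02. Both groups overlapped, with outer replicate 1 the lowest array for each gene. Of the membrane anchors, Sdhc had 3.14, 3.87 and 3.88 against 3.02, 3.97 and 3.65, a difference of -0.08, and Sdhd had 4.18, 4.83 and 4.60 against 4.08, 4.98 and 4.55, with equal group means of 4.54. The highest array was an outer one for all but Sdhb, and the lowest was outer replicate 1 for all 4 genes.

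In complex III, the cytochrome c reductase, the 8 subunits had a median difference of -0.03. Uqcrc1, a core protein, had 3.44, 3.65 and 3.41 in intermediate and 3.32, 3.41 and 3.30 in outer interzone (difference -0.16, SE 0.16, limma adjusted p = 0.62). Uqcrfs1, the Rieske iron-sulfur protein, had 3.39, 4.04 and 3.92 against 3.26, 4.05 and 3.75 (difference -0.10). Uqcrh, the hinge protein, had the highest difference, with 6.32, 6.99 and 6.67 against 6.60, 7.04 and 6.91 (difference 0.19), and Uqcrq the lowest, with a difference of -0.21. None of these pairs of groups was separated. The Uqcrc2 probe, for the other core protein, was printed 10 times on each array, which gave a direct view of the error within an array. The SD over those 10 spots was 0.03 to 0.0494 on the log2 scale, against an SD between arrays of 0.246 in intermediate and 0.151 in outer interzone. The Uqcrc2 difference between the layers was 0.10 (SE 0.19, limma adjusted p = 0.81).

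In complex IV, cytochrome c oxidase, the 10 common subunits had a median difference of -0.0026. Cox5a and Cox5b, accessory subunits around the catalytic core, had differences of -0.19 and -0.16. Cox6a1, the brightest of the complex, had levels of 7.93, 8.36 and 8.03 in intermediate and 7.90, 8.25 and 8.10 in outer interzone (difference -0.02). Cox8a had group means of 7.24 in intermediate and 7.34 in outer interzone (difference 0.10). In both, the 2 layers overlapped over most of their range. Cox7c had the highest difference of all subunits, 0.19, but its 3 tested probes gave differences from -0.11 to 0.42. Over the 29 respiratory chain genes with several tested probes, the differences of a gene's probes spread by a median of 0.117, and by less than 0.25 in 23 of them, with Cox7c the widest at 0.526. Cox7a2l, which helps join complexes III and IV and is no subunit of complex IV alone, had a difference of -0.03. Cox4nb, named for its place beside the Cox4 gene and now called Emc8 for its role in the endoplasmic reticulum, had 0.28 (limma adjusted p = 0.43).

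In complex V, the 15 subunits had a median difference of -0.01. Atp5b, the catalytic beta subunit, had levels of 7.12, 7.49 and 7.30 in intermediate and 6.93, 7.40 and 7.27 in outer interzone (difference -0.10, SE 0.20, limma adjusted p = 0.80). Atp5g1, Atp5g2 and Atp5g3 encode the same mature subunit c of the membrane ring and had differences of 0.01, 0.19 and -0.22 by their brightest probes. Atp5g1 and Atp5g2 have 2 tested probes each, with differences of 0.01 and 0.48 for Atp5g1 and 0.19 and 0.37 for Atp5g2. Atp5g2 had levels of 7.05, 7.60 and 7.31 against 7.23, 7.75 and 7.56, and Atp5g3 had 6.12, 6.79 and 6.48 against 5.77, 6.69 and 6.29. Neither pair of groups was separated. The probes used for Atp5l and Atp5j2 are placed in mm9 on other chromosomes, X and 9, than their genes, and whether these 2 probes also read related copies was not tested. Atp5s, known as coupling factor B and now named Dmac2l, was caught by its name and was the only gene outside the alternative forms whose groups did not overlap. Its levels were -3.20, -2.68 and -2.91 in intermediate and -2.35, -2.29 and -1.89 in outer interzone (difference 0.75, SE 0.22, limma adjusted p = 0.11). Its probe was dim and not well above background on 1 outer array, and with normexp correction and quantile normalization the difference was 0.22.

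The common subunits varied more from array to array than between the means of the layers, and the complexes varied together. Averaged over the 74 subunits, the deviation from each gene's mean was -0.24, 0.29 and -0.01 for intermediate replicates 1, 2 and 3 and -0.32, 0.24 and 0.05 for outer replicates 1, 2 and 3. Replicate 1 was low and replicate 2 was high in both layers. The outer minus intermediate differences between samples of the same number were -0.08, -0.05 and 0.06 for replicates 1, 2 and 3. Of the 74 subunits, 43 had their lowest level in outer replicate 1 and 24 in intermediate replicate 1, while 44 had their highest in intermediate replicate 2 and 27 in outer replicate 2. Each of the 5 complexes had the same order of replicates 1 and 2. In complex I, for example, the mean deviations of replicates 1 and 2 were -0.23 and 0.29 in intermediate and -0.29 and 0.23 in outer interzone. In complex II they were -0.29 and 0.27 in intermediate and -0.44 and 0.33 in outer interzone. Replicate 1 was also the dimmest array of each layer, by the 75th percentile, and the part of brightness in this pattern was not tested.

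**Figure D3:**
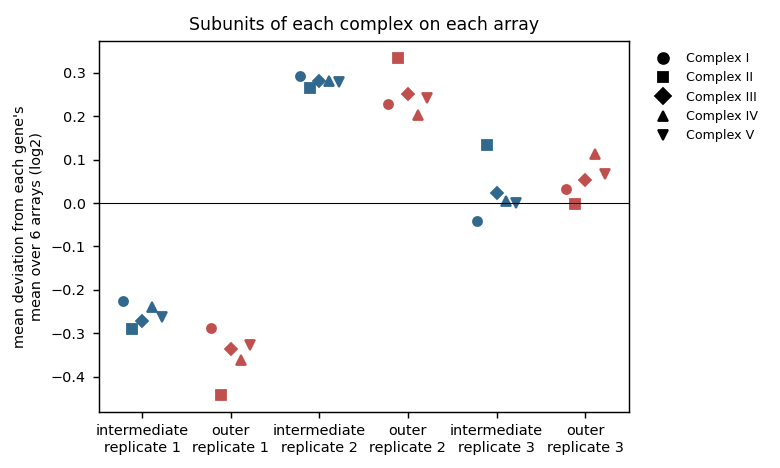
Mean deviation of the subunits of each complex on each array from each gene's mean over the 6 arrays (log2), with intermediate samples in blue and outer samples in red. Marks are complexes I to V with 37, 4, 8, 10 and 15 subunits, with Ndufa4 counted in complex I by its name. Replicates of the same number lie close together, with replicate 1 low (-0.24 and -0.32 over all 74 subunits) and replicate 2 high (0.29 and 0.24).

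The sign of the subunits' small differences depended on how the arrays were scaled, and the absence of calls did not. Scaling each array to its median instead shifts every gene's difference by the same -0.39, so that the median of all genes was -0.29 instead of 0.10 and the split of called genes was 158 higher and 937 lower instead of 282 and 447. By that shift alone all 74 subunits had a negative difference, with a median of -0.41. Relative to the median of all genes, which such a shift does not alter, 14 of the 74 subunits lay above it. That count was 9 with quantile normalization, 2 with the slide block and 40 without outer replicate 1. With the slide as a block, 71 of the 74 subunits had a negative difference and the median was -0.32, and with slide 1 alone the values were equal. In both, the difference is that of outer replicate 1 from the 3 intermediate samples, since slide 2 holds only outer samples. From intermediate replicate 1 alone, outer replicate 1 differed by a mean of -0.08 over the subunits. Without outer replicate 1 the median was 0.14 and 63 of the 74 were positive. That fit keeps intermediate replicate 1, which was also low, and the same-number differences of replicates 2 and 3 were -0.05 and 0.06. No subunit was called in either direction under any of the 16 alternatives run.

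The differences that passed the test lay in the alternative forms. Of the 88 genes, 2 were called higher in the outer interzone and 0 were called lower, with 3 at an unadjusted p under 0.05. Both called genes, Ndufa4l2 and Cox6b2, were among the 6 alternative forms tested. The count of 2 in 88 is near the 1.57% of all genes called higher. Each alternative form has a common partner that was measured on the same arrays, and 3 pairs with a higher alternative form are shown by the first 30 bases of their probes, with positions in mm9. The sequences are printed because similar genes can share a probe's signal.
Ndufa4l2, chr10:126954149-126954208: tgtccctggggatcaaacagaagcagccgt
Ndufa4, chr6:11850423-11850482: ccgcacaattttccacttaagcaggaaata
Cox4i2, chr2:152590711-152590770: ctgagtcctgtctccactcccttctccaat
Cox4i1, chr8:123197924-123197983: aagcgaatgctggacatgaaggccaacccc
Cox6b2, chr7:4703488-4703547: ggaactttcccgggcaaaatatgaccttgc
Cox6b1, chr7:31409575-31411071: aggagtcaggatggctgaagacatcaagac
Over the whole 60 bases, the probes of a pair shared at most 20, 20 and 21 identical bases in any alignment without gaps, in the order printed.

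Ndufa4l2 encodes a protein related to Ndufa4 and is known as a gene induced by hypoxia through HIF-1. Its levels were 4.11, 4.45 and 3.94 in intermediate and 6.41, 5.78 and 6.09 in outer interzone. Every outer sample lay above every intermediate sample, by more than 1 log2 unit. The difference was 1.93 (SE 0.23, 3.81-fold, limma adjusted p = 0.012). It was called in 12 of the 16 alternatives, with differences from 1.54 to 2.25. It was not called without a filter on dim probes (limma adjusted p = 0.13) or when intermediate replicate 1 (0.054), intermediate replicate 3 (0.064) or outer replicate 3 (0.062) was left out.

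Ndufa4 was long listed with complex I, where its name places it here, and is now known as a component of complex IV. Its levels were 3.85, 4.90 and 4.68 in intermediate and 3.40, 4.77 and 4.55 in outer interzone, a difference of -0.24 (SE 0.43, limma adjusted p = 0.79). The groups overlapped, and replicate 1 was the lowest in both layers. The log2 ratio of Ndufa4l2 to Ndufa4 within an array was 0.26, -0.45 and -0.74 in intermediate and 3.02, 1.01 and 1.54 in outer interzone. All 3 outer ratios exceeded all 3 intermediate ratios, with a shift of 2.17. The two-sided exact permutation p was 0.1, the smallest that 3 arrays against 3 allow, and 0.3 after Benjamini-Hochberg adjustment over the 6 pairs compared.

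Cox6b2 is the testis form of a complex IV subunit that faces the intermembrane space. Its levels were 1.14, 1.79 and 1.24 in intermediate and 2.79, 2.28 and 2.53 in outer interzone. The groups did not overlap, and the lowest outer sample was replicate 2. The difference was 1.15 (SE 0.24, 2.21-fold, limma adjusted p = 0.049), just past the threshold. The call was lost with the replicate block (limma adjusted p = 0.059) and with the slide block (difference 1.40, 0.053), and it held in 4 of the 16 alternatives, with adjusted p from 0.026 to 0.23 over all of them. Cox6b1, the common form, had levels of 2.84, 3.24 and 2.67 in intermediate and 2.38, 2.77 and 2.61 in outer interzone (difference -0.33, SE 0.21, limma adjusted p = 0.42). The log2 ratio of Cox6b2 to Cox6b1 was -1.70, -1.46 and -1.43 in intermediate and 0.41, -0.49 and -0.08 in outer interzone. The outer ratios all exceeded the intermediate ones, with a shift of 1.48 (exact permutation p = 0.1, the smallest possible, and 0.3 over the 6 pairs).

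Cox4i2 is the form of subunit 4 known from lung and from oxygen-sensing cells, and it is expressed in pericytes. Its levels were 0.76, 0.04 and 0.61 in intermediate and 1.96, 0.63 and 1.39 in outer interzone, a difference of 0.85 (SE 0.37, limma adjusted p = 0.24). It was 0.54 without outer replicate 1 and 1.20 without outer replicate 2, and 0.46 to 1.49 over the 16 alternatives. The groups overlapped, because outer replicate 2 lay below intermediate replicate 1. Within each replicate number the outer sample was the higher one, and with the replicate block Cox4i2 was called (limma adjusted p = 0.049), the only call in the 16 alternatives. With that block the called respiratory chain genes were Ndufa4l2 and Cox4i2, 2 of 88, where 4.64% of all genes were called higher. Cox4i1, the common form, had 6.43, 6.87 and 6.69 in intermediate and 6.35, 6.84 and 6.68 in outer interzone, a difference of -0.04. The log2 ratio of Cox4i2 to Cox4i1 shifted by 0.90 (exact permutation p = 0.3, and 0.6 over the 6 pairs). Ndufa4l2 is likewise known from pericytes. Markers of pericytes and vascular smooth muscle had a lower mean level in the outer samples. The mean log2 level of the 8 tested markers was 1.84 to 2.40 in intermediate and 0.04 to 1.14 in outer interzone, with Rgs5 and Tagln called lower (differences -2.37 and -2.25) and Cspg4 called higher (1.27), and their part in the Cox4i2 and Ndufa4l2 levels was not tested. That list was chosen after the values of Ndufa4l2 and Cox4i2 were seen.

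None of the 3 tested forms known from heart and skeletal muscle was called. In the fit without a block, leaving out outer replicate 1 while keeping intermediate replicate 1 changed the sign of the difference for Cox8b and Cox6a2. Cox8b had levels of -2.52, -0.86 and -0.18 in intermediate and -4.09, -1.32 and -0.57 in outer interzone (difference -0.81, SE 0.98, limma adjusted p = 0.67). Cox6a2 had -2.62, 0.40 and 0.65 in intermediate and -3.85, 0.47 and 0.12 in outer interzone (difference -0.57, SE 1.32, limma adjusted p = 0.84). Both genes were lowest in outer replicate 1, where neither was well above background, and next lowest in intermediate replicate 1. Without outer replicate 1 their differences were 0.24 and 0.82, and that of Cox6a2 was 0.02 without intermediate replicate 3. The mean log2 level of the 19 tested skeletal muscle markers followed the same arrays, with -0.64, 0.97 and 1.97 in intermediate and -2.35, 0.90 and 1.16 in outer interzone, and the part of muscle RNA in these levels was not tested. The median difference of those markers was -0.77, and 0.22 without outer replicate 1, a fit that keeps intermediate replicate 1. Cox7a1, also a muscle form, had 0.13, 0.16 and 0.24 against 0.13, -0.03 and 0.02 (difference -0.14). It was nearly level over all 6 arrays, unlike the other two.

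**Figure D4:**
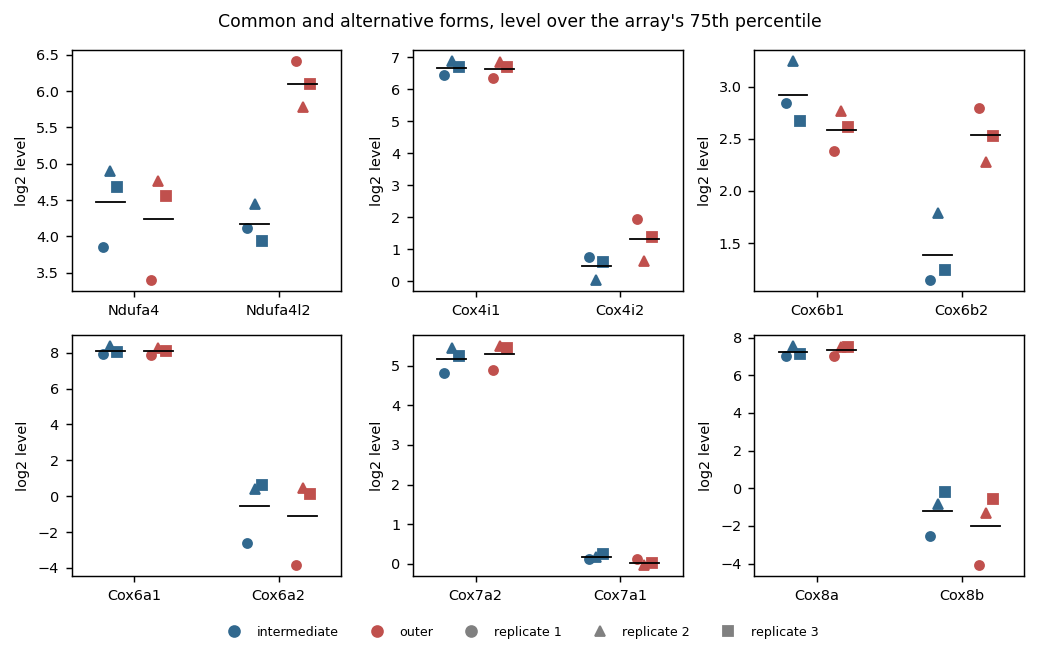
Log2 level over the array's 75th percentile for 6 pairs of a common and an alternative form, with 3 intermediate (blue) and 3 outer (red) samples each, marks by replicate number and bars at the group mean. Levels of different probes are not on 1 scale and are compared only across samples. Ndufa4l2 and Cox6b2 have all outer samples above all intermediate samples, and the common forms overlap.

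The core subunits encoded in the mitochondrial genome had small positive differences that were not called. All 13 were measured on all 6 arrays, and 0 were called in either direction or had an unadjusted p under 0.05. Their differences ran from 0.07 for ND1 to 0.62 for ND6, with a median of 0.18, beside 0.10 for all genes. All 13 were positive on the main scale, and 11 were above the median of all genes. The shift of median scaling put 11 below 0, and normexp correction with quantile normalization put 6 below 0 and left 6 above the median of all genes. COX1, the catalytic subunit of complex IV, had levels of 9.17, 8.70 and 8.92 in intermediate and 9.24, 8.98 and 9.03 in outer interzone (difference 0.16). CYTB, the cytochrome b of complex III, had 8.05, 7.83 and 7.57 against 8.11, 7.69 and 7.97 (difference 0.11). The groups overlapped for all 13. The mean level of the 13 was 6.41, 6.42 and 6.17 in intermediate and 6.61, 6.44 and 6.61 in outer interzone, so replicate 1 was not low here as it was for the nuclear subunits. Of the 13 probes, 6 are placed on chromosome 1 of mm9, where a nuclear copy of mitochondrial sequence lies, and not on the mitochondrial genome.

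Further genes of mitochondrial respiration were tested in 5 lists, of which the assembly factors include Ndufaf1 to Ndufaf4, and none was called in the main fit. Of 42 tested assembly factors, 16 genes of electron carriers and coenzyme Q synthesis, 19 of pyruvate dehydrogenase and the citric acid cycle, 15 regulators of mitochondrial biogenesis and 9 of inner membrane exchange and uncoupling, 0 were called in either direction by limma. Under the alternatives, Ucp2, an uncoupling protein of the inner membrane list, was called lower in 8 of 16 and Ucp3 in 3, and Ndufaf5, an assembly factor of complex I, was called higher in 2, the slide block and slide 1 alone. At an unadjusted p under 0.05 there were 1, 1, 0, 1 and 2. Their median differences were 0.06, -0.08, -0.16, 0.16 and -0.18. Citric acid cycle genes included Mdh2, malate dehydrogenase, with a difference of -0.26, and Cs, citrate synthase, with levels of 5.65, 5.87 and 5.73 in intermediate and 5.17, 5.78 and 5.48 in outer interzone (difference -0.27, limma adjusted p = 0.48). For both, outer replicate 1 was the lowest array. Cycs, cytochrome c, had a difference of -0.19 and Etfb, of the electron transfer flavoprotein, one of -0.11. Coa3, an assembly factor of complex IV, had -0.19, and Timmdc1, of complex I, had 0.64 with a wide SE of 0.57. Ssbp1 and Gabpb1, regulators of mitochondrial DNA and of nuclear respiratory genes, had 0.25 and 0.22. Slc25a4, an ADP and ATP carrier, had -0.18, and Atpif1, the inhibitor of the ATP synthase, had 0.03.

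Genes of glycolysis and of the response to hypoxia stand beside these for comparison. All 20 glucose uptake and glycolysis genes had a positive difference, with a median of 0.60, and 14 (70%) had groups that did not overlap, against 27.1% of all genes. Of the 20, 1 was called, Slc16a3, the lactate exporter, with levels of 4.56, 4.75 and 4.46 in intermediate and 5.50, 5.51 and 5.29 in outer interzone (difference 0.85, SE 0.17, limma adjusted p = 0.045), and 6 were called with the replicate block, under which 4.64% of all genes were called higher. All 20 lay above the median of all genes. With median scaling, which shifts all genes alike, 15 were above 0 and 0 were called. Of 10 hypoxia-induced regulators, 3 were called higher and 5 with the replicate block. The 3 were Bnip3, which acts in the removal of mitochondria, Ankrd37 and Vegfa, the vascular growth factor, with differences of 1.59, 1.34 and 0.89 (limma adjusted p = 0.034, 0.019 and 0.049). With median scaling 1 of the 10 was called, and 8 lay above the median of all genes on either scale. Cartilage genes and these lists were higher in the same samples, and whether they mark the same cells was not tested.

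**Figure D5:**
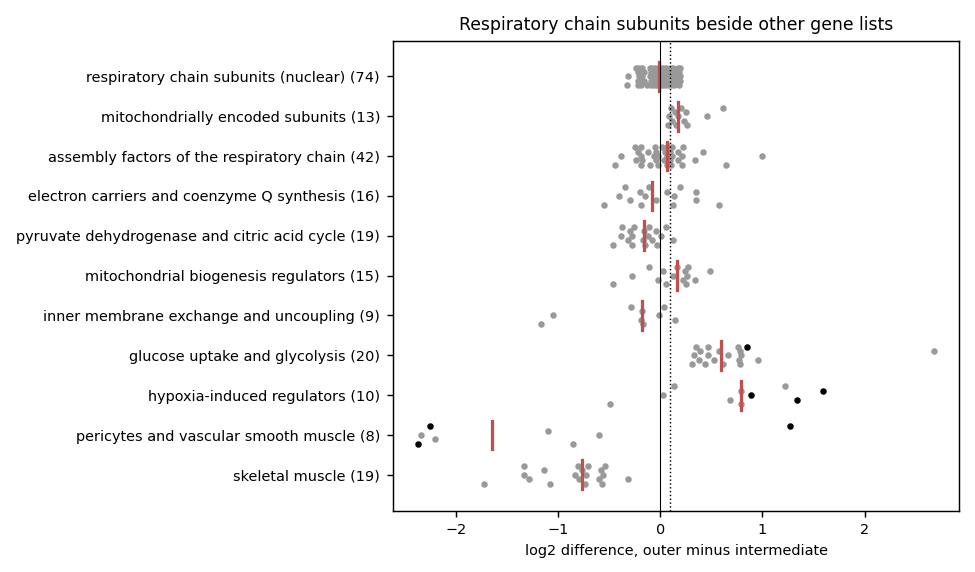
Log2 difference, outer minus intermediate, for each tested gene of 11 lists, with the number of genes in brackets. Black points are called by limma, red bars are list medians, the dotted line is the median of all genes (0.10). The 74 nuclear subunits centre on -0.01, the glycolysis list on 0.60 and the hypoxia list on 0.79.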

How the data were processed

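The arrays were scanned and extracted by the authors, with Agilent Feature Extraction 10.7.3.1 named in the file headers. Per the file headers, each deposited file gives an intensity for every spot (a processed signal) and marks those that were saturated, outlying or too close to background. Partek 6.11.0321 appears in the submitters' processing notes with no stated role. In the authors' deposited series table, intensity equals that signal after division by a constant for each array (spread at most 2.44e-05%, column medians 1). Its scale is linear, with no centring per gene, and its direction of comparison is unknown. Probe positions are in mm9, per the file headers.

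Spots of a probe were averaged as log2 values. The 59305 non-control spots gave 55681 probes, of which 9 were dropped for a missing value. Levels were taken over the array's 75th percentile, and 23884 probes passed the filter of being well above background throughout a group. The brightest such probe stood for each of 18003 genes. A later RefSeq table, used for names only, gave current symbols to 26760 of 28388 probes that carry a RefSeq accession. The test was limma 3.58.1 under R 4.3.3, by lmFit and eBayes, two-sided and with Benjamini-Hochberg adjustment over all genes. The fit was tested on simulated data with independent noise and planted changes larger than the difference of any member. That test does not bear on small differences or on variation shared between arrays. No spot was saturated, and precision is limited by having 3 arrays in each group.

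With group means taken out, the correlation over genes between samples of the same number was 0.563, 0.48 and 0.372, and the highest correlation between different numbers was 0.114. The replicate numbers, which come from the labels, were therefore taken to pair the samples in the replicate block and in same-number comparisons only. The labels do not say that a number marks 1 embryo. The main fit has no block, and the permutation of the isoform ratios did not use the pairing.

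The members and lists were chosen with earlier results of these data known. The roles, the list of mitochondrially encoded genes and the pericyte list were added after the values were seen. Named members were picked from those called, the 3 highest, 3 lowest and 2 brightest of each complex, isoform families and Sdh genes, and from other lists the called or 2 brightest genes. Uqcrb, Uqcr11, Atp5sl, Cox7a2 and Cox7b met this rule but were not described above. Their differences were 0.17, -0.20, 0.23, 0.10 and 0.02, and none was called. Ndufv1, Ndufs1, Ndufaf3, Ndufaf4, Uqcrfs1, Cox5a, Cox5b, Cox7c, Atp5j2 and the mitochondrially encoded genes were named in addition. Alternatives were other scalings and filters, normexp with an offset of 50, the mean of a gene's probes, replicate and slide blocks, slide 1 alone and leaving out each array.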

Additional observations from a re-analysis of the deposited data

How the results depend on the processing

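The count of all genes called, 729, was 450 with quantile normalization, 1095 with median scaling, 0 without a filter on dim probes (limma, 4268 at an unadjusted p under 0.05), 460 with a filter on all 6 arrays, 1215 with the slide block and 1314 on slide 1 alone. With the replicate block, which uses the pairing of samples, it was 1636. Leaving out each array gave 66 to 1111. Called respiratory chain genes numbered 1 with quantile normalization, median scaling, the percentile over probes above background on all 6 arrays, the slide block and slide 1 alone, 0 without a filter (3 at an unadjusted p under 0.05) and 0 to 2 when an array was left out. With the replicate block there were 2, and no call changed but those of Cox6b2 and Cox4i2.

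Median scaling moved the median difference of the 88 genes to -0.40, and those of complexes I to V to -0.39, -0.45, -0.42, -0.41 and -0.39. The slide block and slide 1 alone moved it to -0.30, and complexes I, II and V to -0.25, -0.45 and -0.32. Leaving out each array gave -0.14 to 0.16 for the 88 genes, -0.12 to 0.15 for complex I, -0.26 to 0.17 for II, -0.17 to 0.14 for III, -0.16 to 0.23 for IV and -0.10 to 0.15 for V. Median scaling moves every gene by the same -0.39, and the cause of the shift with the slide block was not tested. Of 605 comparisons for single named genes, 499 kept their direction and side of the threshold, 16 lost a call and 1 gained one. In 89 the direction changed with neither value called, and 0 reversed a called value. Signal over background limits the dim alternative forms Cox8b and Cox6a2 and Atp5s most.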

Other observations

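Ucp2 and Ucp3, inner membrane carriers of the uncoupling protein family, were the only genes of the inner membrane list whose groups did not overlap (2 of 9, or 22.2%, against 27.1% of all genes tested), and both had lower levels in the outer interzone. Ucp2 had levels of 0.83, 0.52 and 0.49 in intermediate and -0.80, -0.13 and -0.37 in outer interzone (difference -1.05, limma adjusted p = 0.053). Ucp3 had 1.00, 0.90 and 0.65 against -1.02, 0.15 and -0.10 (difference -1.17, limma adjusted p = 0.098). Both missed the threshold in the main fit. Ucp2 was called lower in 8 of the 16 alternatives, among them median scaling (adjusted p = 0.032) and the slide block (0.031), and Ucp3 in 3 of them, normexp with quantile normalization, the slide block and slide 1 alone. Both genes were chosen after their values were seen. Ucp2 is known to be expressed in macrophages, whose markers were lower in the same samples, and the part of macrophage RNA in the difference was not tested.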
